A study of Mus musculus with 6 samples.

Results

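The Ifitm window is an interval of 180 kb on mouse chromosome 7, chr7:148080000-148260000 in the mm9 build, given as the place of the genes Ifitm1, Ifitm2 and Ifitm3. All peaks of 4 SMAD1/5 ChIP-seq peak lists that overlapped it were taken, which gave 27 of 24441 peaks. Embryonic stem cells (ESCs) kept in LIF+serum contributed 11 of 9387 peaks, and ESCs kept in LIF+BMP-4 contributed 16 of 14696. Epiblast stem cells derived from ESCs (ESD-EpiSCs) contributed 0 of 225 peaks after 1.5 h of BMP-4 and 0 of 133 after 24 h. The window was chosen by the density of its ESC peaks, the values that the counts and the spacing below restate, so these are given as a description, without a test.

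An anti-Smad1 antibody was used to pull down SMAD1/5-bound DNA from mouse E14 cells, an established ESC line. The naive state was represented by E14 ESCs in LIF+serum or in serum-free LIF+BMP-4 (10 ng/ml), and the primed state by ESD-EpiSCs grown with FGF2 and Activin A and given BMP-4 (10 ng/ml) for 1.5 h or 24 h. Each condition was 1 library from 1 cell line, with no replicate and no untreated ESD-EpiSC library, so no difference below could be set against the spread of replicates. Cell state cannot be told apart from medium, BMP-4 exposure or library. Read depth is unknown, and where a list has no peak, binding may still have been present.

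Bone morphogenetic proteins signal through receptor kinases that phosphorylate SMAD1 and SMAD5, which then enter the nucleus with SMAD4 and bind DNA. The Ifitm genes encode small interferon-induced transmembrane proteins that restrict the entry of many viruses. In the mouse embryo, Ifitm3 (also called fragilis) and Ifitm1 mark epiblast cells competent to form primordial germ cells and their early descendants, and BMP-4 from the extraembryonic ectoderm induces that fate. In the RefSeq gene table of the GRCm38.p6 build, Ifitm5, Ifitm2, Ifitm1, Ifitm3 and Ifitm6 follow each other on chromosome 7 with no other protein-coding gene between them. Ifitm5 is known for its role in bone mineralisation. The neighbours on the outer sides are Pgghg and Nlrp6 beyond Ifitm5, and B4galnt4 and Pkp3 beyond Ifitm6. Of the other relatives, Ifitm10 lies farther along chromosome 7 and Ifitm7 on chromosome 16. Gene positions in mm9 were not used here, so the place of the cluster in the window rests on the rule alone, and no peak below is assigned to a gene, promoter, exon or intron.

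Promoter sequences from RefSeq (GRCm38.p6) were searched for SMAD elements close to the annotated start of the member genes, independently of the peaks. They cover 250 bases each and do not show what lies elsewhere in or near the genes. For Ifitm1 and for Ifitm2, 1 gene model of the same gene lies over these bases, so they may not be upstream of the whole gene. For Ifitm3, 0 gene models do. In the 250 bases before the annotated start, both strands were searched for GGCGCC (the GC-rich SMAD element), GGAGCC (a variant of the BMP response element), GTCTAGAC (the palindromic SMAD box) and GTCT (the single SMAD box, which GTCTAGAC contains). Neither GGCGCC nor GTCTAGAC occurred before Ifitm1, Ifitm2 or Ifitm3. These letters were present in 9.59% and 0.167% of all 32851 promoter sequences of the same length. Ifitm3 held 1 GGAGCC match, a motif found in 26.0% of all promoter sequences. It is shown here in capitals, as read on the gene's strand (GGCTCC), within the 250 bases before the start:

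Ifitm3: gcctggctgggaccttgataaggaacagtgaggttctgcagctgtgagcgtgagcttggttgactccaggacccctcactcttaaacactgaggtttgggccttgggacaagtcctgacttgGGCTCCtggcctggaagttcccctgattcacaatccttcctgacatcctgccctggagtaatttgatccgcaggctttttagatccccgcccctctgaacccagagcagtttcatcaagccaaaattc

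The single SMAD box separated the member genes. Ifitm2 held 5 GTCT matches, a number reached by 4.68% of all promoter sequences, whereas Ifitm1 and Ifitm3 held 0. GTCT occurs in 82.9% of all promoter sequences, with a median of 2 matches. The 30-base stretch with the closest pair of matches and the 30 bases next to the start are shown, with GTCT or its reverse AGAC in capitals:

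Ifitm2, 204 to 233 bases before the start: aggaggtggAGACcttcAGACaagttttag

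Ifitm2, 1 to 30 bases before the start: gagaaagggcggGTCTacagaaccaggata

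A match is a description of the sequence and not a binding site, and whether any peak of the window covers these bases was not tested.

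ESC peaks were spread over 119 kb (LIF+serum) and 118 kb (LIF+BMP-4) of the window, measured from the first to the last midpoint. Neighbouring midpoints lay a median of 9.91 kb apart in LIF+serum (1.91 to 35.5 kb) and 5.36 kb in LIF+BMP-4 (0.633 to 32.1 kb). Over the whole lists the median step was 72.1 kb and 45.8 kb. The stretch from 148.1 to 148.2 Mb held 9 of the 11 LIF+serum peaks and 12 of the 16 LIF+BMP-4 peaks. Left of the window's peaks, both lists had a gap of about the same length, and on the right LIF+BMP-4 calls resumed sooner. The last LIF+serum peak before the window, at chr7:148020638-148021109 (score 68.01), lay 103 kb from the first peak inside. The next LIF+serum peak after the window, at chr7:148334432-148335247 (score 113.54), lay 90.9 kb from the last peak inside. For LIF+BMP-4 the outer neighbours were chr7:148026926-148027343 (score 74.84), at 97.0 kb, and chr7:148286001-148286641 (score 51.8), at 42.6 kb. The score is the authors' own value per peak, with a lowest value of 50.01 for LIF+serum and 50 for LIF+BMP-4. It ranks peaks within a list only.

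**Figure D1:**
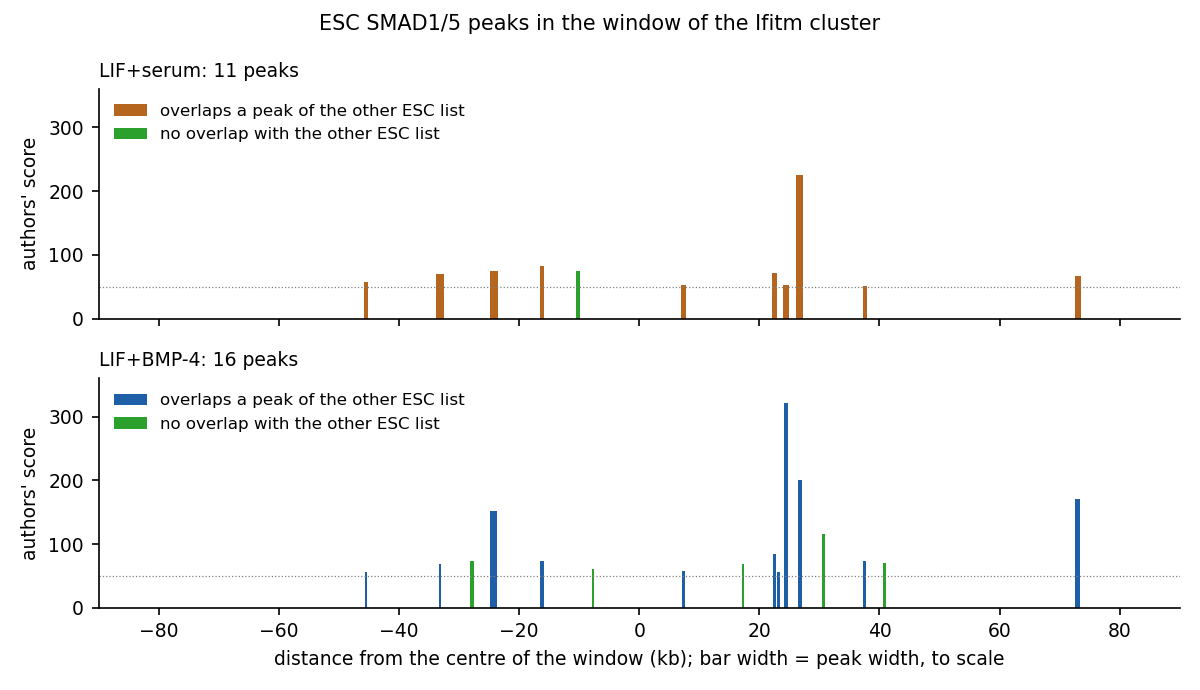
Peaks of the 2 ESC lists along the window, as distance from its centre in kb against the authors' score, with bars as wide as the peaks and a dotted line at a score of 50. Green bars mark peaks that overlap no peak of the other ESC list, and the other bars those that do. The tallest LIF+serum bar (224.6) and the tallest LIF+BMP-4 bar (321.1) both stand in the crowded stretch right of the centre.

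Against genome tiles of the same length, the window was among the densest for both ESC lists. In LIF+serum 7 of 14280 tiles held more than its 11 peaks, and the highest tile held 18. In LIF+BMP-4 3 tiles held more than its 16 peaks, and the highest again held 18. The median tile with any peak held 1 LIF+serum peak or 2 LIF+BMP-4 peaks. The rank depended on where the tiles began. Tiles moved by 90 kb divided the cluster, and the better of the tiles that meet the window then ranked 47 in LIF+serum, with 7 peaks, and 8 in LIF+BMP-4, with 14 peaks.

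**Figure D2:**
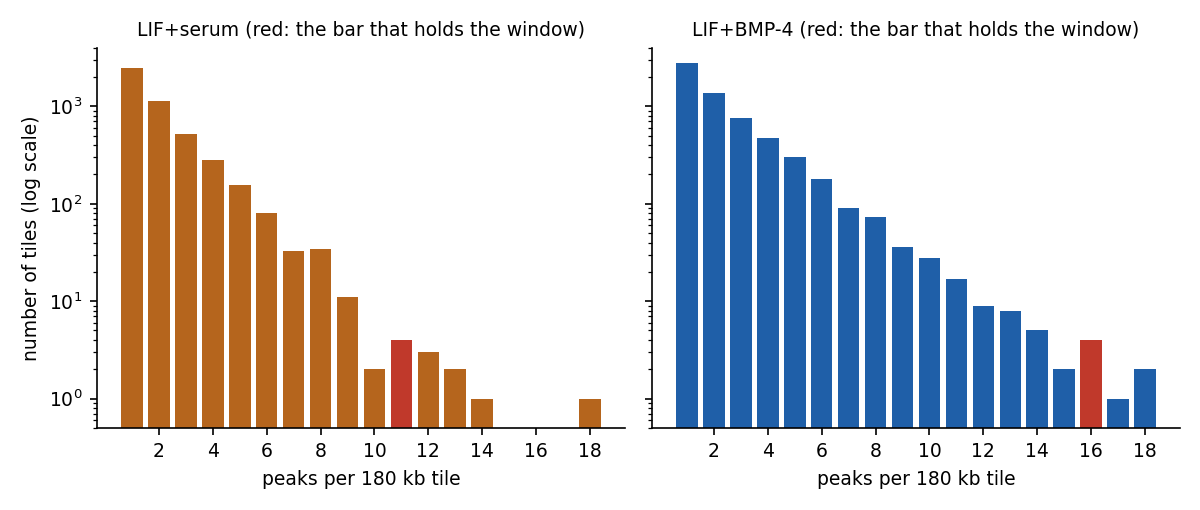
Number of 180 kb tiles (log scale) by the number of peaks they hold, for LIF+serum and LIF+BMP-4, with empty tiles left out. The red bar is the one that holds the window: 4 tiles with 11 LIF+serum peaks and 4 tiles with 16 LIF+BMP-4 peaks.

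Median scores of the window's peaks lay near those of their lists. Of the LIF+serum peaks in the window, 1 of 11 (9.09%, exact Clopper-Pearson 95% interval 0.230 to 41.3) had a score of at least 100, against 23.1% of the whole list. In LIF+BMP-4 this was so for 5 of 16 (31.3%, 11.0 to 58.7), against 29.7% of the whole list. Median scores were 69.7 and 72.8, next to 70.5 and 76.4 over the whole lists. The median peak stood at percentile 48.8 of the LIF+serum list and 45.6 of the LIF+BMP-4 list. The LIF+BMP-4 list was also shortened to the length of the LIF+serum list by removing the lowest-scoring LIF+BMP-4 peaks. The 12 peaks left in the window then had a median percentile of 26.4, lower because of that removal. These intervals hold counting error alone, since a library's peaks are no replicates. Counting only peaks that scored 100 or more, the window ranked 337 of the LIF+serum tiles and 24 of the LIF+BMP-4 tiles.

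Most places in the window were called in both media when all scores were kept. In LIF+serum 10 of 11 peaks (90.9%, 58.7 to 99.8) overlapped a LIF+BMP-4 peak, against 58.8% of the whole list. In LIF+BMP-4 11 of 16 peaks (68.8%, 41.3 to 89.0) overlapped a LIF+serum peak, against 38.7% of the whole list. Peaks of 1 library are not independent, and the window was chosen for these peaks, so the intervals are no test against the lists' shares. Merging the lists gave 16 regions in the window, numbered 1 to 16 from left to right. Both media had a call in 10 of them (62.5%), against 29.9% of all 18386 merged ESC regions. LIF+serum alone had 1, and LIF+BMP-4 alone had 5. Counting only peaks that scored 100 or more, 1 of 5 regions was held in both, and 1 of 5 LIF+BMP-4 peaks (20.0%) was shared. The minimum applied to both lists and left 1 LIF+serum peak in the window. With the LIF+serum list uncut, the LIF+BMP-4 peaks of regions 4, 11, 12 and 16 overlapped a LIF+serum peak, and that of region 13 did not. Whole-list shares at this minimum were not taken.

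Other crowded tiles also had many regions in both media. There were 23 other tiles with at least 20 ESC peaks, both lists together, a limit set after the data were seen. Of their 357 merged regions, 163 (45.7%) had a call in both media, against 29.9% of all merged regions. A region called in both media counts with a peak of each list, so the limit itself favours such regions. How much this added was not tested. Tiles picked instead by at least 10 merged regions had 35.0% (606 of 1732). Shares of the 23 tiles ran from 25.0% to 71.4%, with a median of 50.0%, and 2 of the 23 lay above the window's 62.5%. Of the 5 other tiles with at least the window's 27 ESC peaks, 1 lay above it, on chromosome 4, with 10 of 14 regions in both media. Among tiles picked by ESC peaks, the window was thus in the upper part of the range and not beyond it. Picked by merged regions, it stood higher. Of the 11 other tiles with at least the window's 16 merged regions, 0 reached its share, and the highest had 56.25%. Of the 147 other tiles with at least 10 merged regions, 3 reached it. No test was made of these differences.

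**Figure D3:**
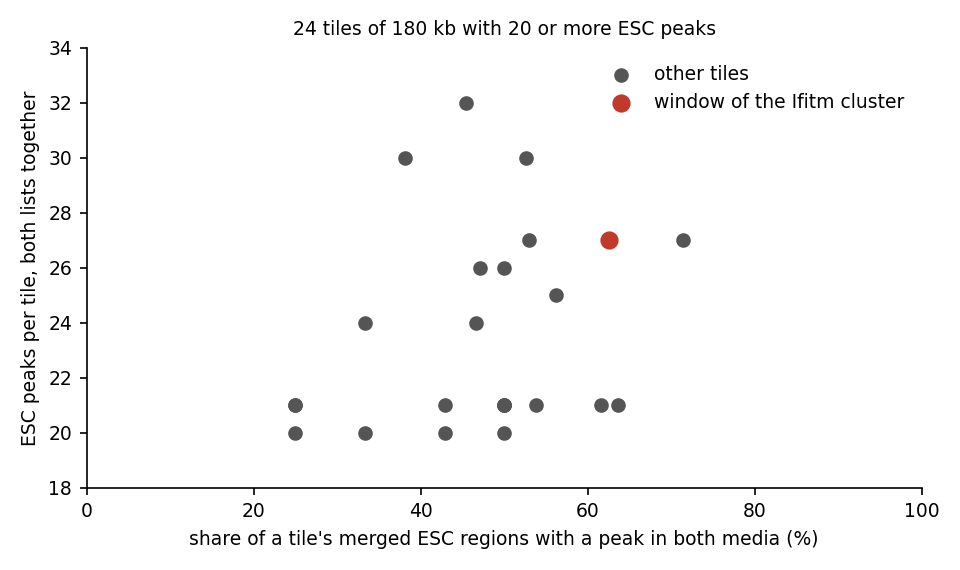
Share of merged ESC regions with a peak in both media (%) against the number of ESC peaks of both lists together, for the 24 tiles of 180 kb with 20 or more peaks. The window (red, 62.5%) lies in the upper part of the range of the other tiles, 25.0% to 71.4%. The vertical axis starts at 18 peaks, and some tiles coincide.

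The left arm of the window, regions 1 to 5, held peaks of middle and low rank in serum. Region 1 opened the window with a LIF+serum peak at chr7:148124244-148124868 (625 bp, rank 7384) over a LIF+BMP-4 peak at chr7:148124328-148124651 (324 bp, rank 12158). Region 2 followed with a LIF+serum peak at chr7:148136206-148137452 (1247 bp, rank 4808) and a LIF+BMP-4 peak at chr7:148136586-148137077 (492 bp, rank 8755). Both places thus had a weak or middling call in both media. Region 3, at chr7:148141903-148142478 (576 bp, rank 7793), was called in LIF+BMP-4 alone.

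Region 4 was the strongest of the left arm in LIF+BMP-4. Its LIF+BMP-4 peak at chr7:148145200-148146297 was the widest of that list in the window (1098 bp), scored 152.54 and ranked 1750. The LIF+serum peak at chr7:148145089-148146439, also the widest of its list in the window (1351 bp), scored 74.82 and ranked 4155. Region 5 went the other way by rank within the window. Its LIF+serum peak at chr7:148153401-148154175 (775 bp, score 82.03) was the second highest of the 11, at list rank 3398, while its LIF+BMP-4 peak at chr7:148153540-148154141 (602 bp, score 72.7) was rank 8015.

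In the middle of the window, regions 6 to 9, no call scored 100 or more. Region 6, at chr7:148159435-148160110 (676 bp), was the 1 place called in LIF+serum alone; its score of 74.1 was the fourth highest of that list in the window, at rank 4230. Region 7, called in LIF+BMP-4 alone, lay beyond it at chr7:148162060-148162452 (393 bp, rank 10656). Region 8 was low in both lists, with a LIF+serum peak at chr7:148176966-148177751 (786 bp, rank 8483) and a LIF+BMP-4 peak at chr7:148177180-148177626 (447 bp, rank 11551). Region 9, at chr7:148187033-148187513 (481 bp, rank 8799), was again called in LIF+BMP-4 alone.

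Regions 10 to 12 formed the core of the cluster and held the highest peak of each list. In LIF+serum 3 peaks fell within 5290 bp, chr7:148192049-148197338. Only 59 of 9346 runs of 3 neighbouring peaks in that list (0.631%) were as tight. In LIF+BMP-4 4 peaks fell within 4817 bp, chr7:148192273-148197089, as tight as 28 of 14636 runs of 4 (0.191%). Close spacing is part of what singled the window out, so these shares describe it and support nothing further.

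Region 12 was strong in both media. Its LIF+serum peak at chr7:148196100-148197338 (1239 bp) scored 224.6, the highest of the 11, and ranked 300. Its LIF+BMP-4 peak at chr7:148196368-148197089 (722 bp) scored 199.98, the second of the 16, and ranked 918. This was the 1 place in the window with a score of at least 100 in both lists. Region 10, at the other end of the core, had a single LIF+serum peak at chr7:148192049-148192970 (922 bp, score 71.42, rank 4549). It met a pair of LIF+BMP-4 peaks 94 bp apart, at chr7:148192273-148192845 (573 bp, score 85.18, rank 6018) and chr7:148192940-148193443 (504 bp, score 55.67, rank 12322).

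Region 11 stood at opposite ends of the lists. Its LIF+BMP-4 peak at chr7:148194176-148194721 (546 bp) was the highest of the 16, with a score of 321.1, rank 259 and percentile 98.2. Its LIF+serum peak at chr7:148193931-148194914 (984 bp) was among the lowest of the 11, with a score of 52.76, rank 8551 and percentile 8.89, close to the lowest score of that list. The difference was 89.4 percentile points. Of 5330 pairs of ESC peaks that met each other and no other peak, 10 (0.188%) had a difference in that direction at least as large. With the LIF+BMP-4 list shortened to the length of the LIF+serum list, its percentile was 97.2. The pair was picked out after its values were seen. A percentile places a peak within its own list and does not measure a change in binding between media.

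Beyond the core, LIF+BMP-4 had more calls. Region 13, at chr7:148200413-148200869 (457 bp, score 115.35, rank 3255), was the highest of the 5 places called in LIF+BMP-4 alone and the fifth highest of the 16. Region 14 had a LIF+serum peak at chr7:148207284-148207927 (644 bp, score 50.9, rank 9145), the lowest of the 11, and a LIF+BMP-4 peak at chr7:148207316-148207806 (491 bp, score 72.85, rank 7967). Region 15, at chr7:148210672-148211023 (352 bp, rank 8498), was called in LIF+BMP-4 alone. Region 16 lay apart from the rest, after 31487 bp without a LIF+BMP-4 peak and 34698 bp without a LIF+serum peak. There the LIF+BMP-4 peak at chr7:148242511-148243423 (913 bp, score 171.31, rank 1336) was the third highest of the 16, and the LIF+serum peak at chr7:148242626-148243563 (938 bp, score 66.33) ranked 5316.

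The other pairs differed less between the lists. The window held 9 pairs of peaks that met each other alone. In 5 of 9 (55.6%) the LIF+BMP-4 peak stood at the higher percentile, against 61.2% of all pairs. The median difference, LIF+BMP-4 minus LIF+serum, was 11.7 percentile points in the window and 5.23 over all pairs, and its median size regardless of direction was 18.3 and 18.8 points. Without region 11, 4 of 8 pairs stood higher in LIF+BMP-4, with a median difference of 4.32 points and a median size of 15.0 points. Regions 16, 14 and 4 followed region 11, with differences of 47.6, 43.1 and 32.4 points towards LIF+BMP-4, which 10.8%, 13.2% and 20.4% of all pairs reached. The largest difference towards LIF+serum was 18.3 points, in region 5.

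**Figure D4:**
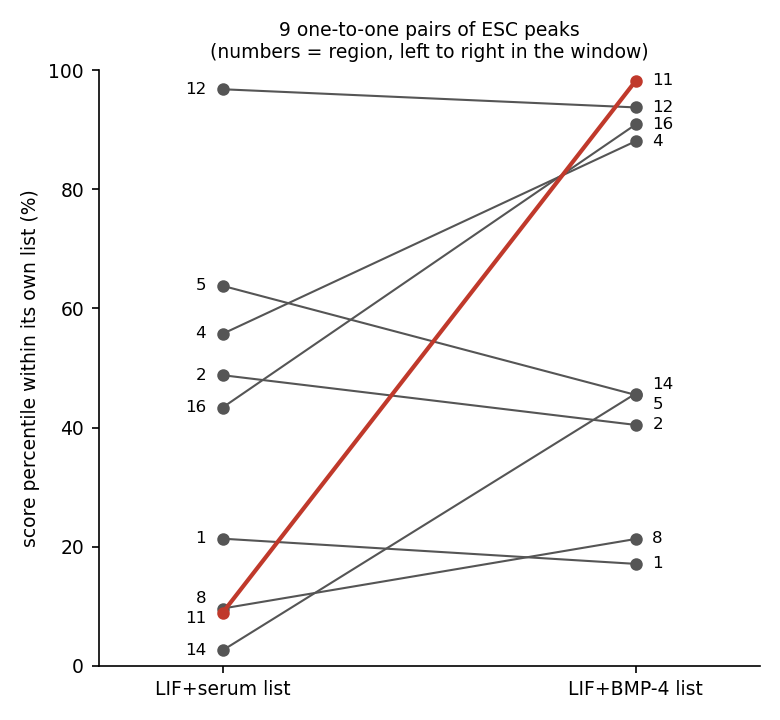
Score percentile within its own list (%) of the LIF+serum peak (left) and the LIF+BMP-4 peak (right) of the 9 one-to-one pairs, with the region number at each end. Region 11 (red) goes from 8.89 to 98.2, whereas region 12 is high in both lists (96.8 and 93.8).

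In the 9 pairs of peaks that met each other alone, midpoints lay close and the serum peak was wider, as in most pairs of the whole lists. A pair had to overlap, which itself favours close midpoints. Region 10 is not among the 9 pairs. There the LIF+BMP-4 peak at chr7:148192940-148193443 ran past the end of the LIF+serum peak. Midpoints of the 9 pairs lay a median of 44.5 bp apart (2.5 to 127.5 bp), against 70.5 bp over all pairs. The LIF+serum peak was the wider in 9 of 9 pairs, against 92.6% of all pairs, with a median width ratio of 1.72 (1.03 to 2.53) against 1.48. The LIF+BMP-4 peak lay wholly inside the LIF+serum peak in 8 of 9 pairs, against 69.6% of all pairs, and region 16 was the exception. The 11 LIF+serum peaks had a median width of 922 bp and covered 10187 bp, or 5.66% of the window. The 16 LIF+BMP-4 peaks had a median width of 498 bp and covered 8971 bp, or 4.98%. The median widths of the whole lists were 811 and 500 bp.

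Shared and unshared LIF+BMP-4 peaks of the window had close median scores, but the highest scores belonged to shared peaks. The LIF+BMP-4 peaks that scored 321.1, 199.98, 171.31 and 152.54 were all shared. Unshared peaks were few, and the same split over the whole lists was not taken. In LIF+BMP-4 the 11 shared peaks had a median score of 72.9 (55.67 to 321.1) and the 5 others 70.1 (60.74 to 115.35), and the ranges overlapped. The unshared LIF+serum peak, with a score of 74.1, lay above the median of the 10 shared ones, 68.0 (50.9 to 224.6).

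No ESD-EpiSC peak fell in the window at either time, and 0 of the 27 ESC peaks there met one. Over the whole lists, an ESD-EpiSC peak was met by 0.735% of the LIF+serum peaks and by 0.517% of those in LIF+BMP-4. The nearest calls on chromosome 7 were at chr7:139609830-139609898 after 1.5 h (score 51.24), 8470 kb away, and at chr7:128032141-128032206 after 24 h (score 52.27), 20048 kb away. At the window's share of the LIF+serum list, 225 peaks would place 0.264 and 133 peaks 0.156 in it. Lists this short would hold under 1 peak there even at the ESC share, so the count of 0 does not measure SMAD1/5 in primed cells. Of the 23 other tiles with at least 20 ESC peaks, 1 (4.35%) held an ESD-EpiSC peak. Of the 147 with at least 10 merged regions, 11 (7.48%) did. The share over all tiles was not taken, so these counts have no reference.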

How the data were processed

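The deposited data are 1 peak list per immunoprecipitated library (4 of 6 libraries; the 2 input libraries were not analysed here), with chromosome, start, end, name and score. The score is the authors' own value per peak, of unstated scale, and was used only to rank or filter within a list. Bowtie 1.1.0, MACS 1.4.2 and Picard, with the mm9 build, stand in the submitters' processing notes. Filters, control library and read depth: not given in the sources used here. Members, gene names and motifs were chosen with earlier results of these data known. Positions are printed 1-based. Peaks were shared with an overlap of at least 1 bp, and peaks that overlapped or touched were merged into regions. Tiles were laid along each chromosome from the window's start, and a peak counted in each tile it met. A percentile is the share of the list's peaks with a lower score, ties counted at their middle. No test was run, since each condition has 1 library. Every peak of the window is reported, with scores for the 5 highest of each ESC list. All 7 Ifitm symbols searched matched the RefSeq table; its assembly differs from mm9, so only names, order and promoter sequences were used. Overlap and merging code was checked on simulated lists of known overlap. Python 3.11.15, numpy 2.4.6, pandas 2.3.3, scipy 1.17.1 and matplotlib 3.10.9 were used.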

Additional observations from a re-analysis of the deposited data

How the results depend on the processing

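No paired analysis was possible because there is a single library per condition. Of 43 alternative values, 28 stayed within their limit (the 95% interval for shares, 1.5 times for other values) and 15 did not. Part of the 28 could not have moved. The ESD-EpiSC lists had no peak in the window, and filters that only remove peaks could not add any. Equal length left the LIF+serum list uncut, so its peak count, tile rank and median percentile were bound to stay. The 28 therefore do not measure how stable the results are. Keeping scores of 100 or more left 1 LIF+serum peak (1239 bp) and 5 LIF+BMP-4 peaks (3736 bp) in the window. Shared shares were then 100% (1 of 1) and 20.0% (1 of 5). Both media held 1 region together, and tile ranks were 337 and 24. The minimum cut both lists. With the LIF+serum list uncut, the LIF+BMP-4 peaks of regions 4, 11, 12 and 16 were shared and that of region 13 was not. Whole-list shares at this minimum were not taken. Extension of peaks by 1 kb gave a LIF+serum share of 100% (11 of 11). Tiles moved by 90 kb gave ranks of 47 (LIF+serum) and 8 (LIF+BMP-4), and tiles of 100 kb with the stretch from 148.1 to 148.2 Mb gave rank 4 in LIF+serum. ESC lists of equal length lowered the median percentile of the LIF+BMP-4 peaks to 26.4, over the 12 left, because the lowest-scoring peaks of that list were removed. The shared share of LIF+serum peaks was 72.7% (8 of 11) with equal lists, within its interval. Other crowded tiles had 45.7% of regions in both media; picked after the data were seen by at least 10 merged regions, they had 35.0%. Moved tiles divide the cluster, and a score minimum or a shorter list removes low-scoring peaks, by construction. For the other values that left their limit the cause was not tested. Unknown depth limits every absence reported, the ESD-EpiSC counts above all.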
